A study of Mus musculus with 6 samples.

Results

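The Il17a and Il17f locus was taken as the stretch of mouse chromosome 1 from 60 kb before Il17a to 60 kb past Il17f, chr1:20670905-20844270 in the mm10 build, a window of 173366 bp. Every ATAC-seq peak that touched this window in any of 6 libraries was kept. The 111 peaks formed 35 regions, numbered here R1 to R35 from left to right, out of 236017 regions in the whole series. A region is the joined span of all peaks, from any library, that overlap or touch. ATAC-seq uses the transposase Tn5 to cut and tag DNA that is not wrapped tightly in nucleosomes, so a peak marks a place where DNA was accessible.

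All libraries came from wild-type C57BL6/J mice. Per the methods, the animals were adults of both sexes and naive CD4+ T cells were activated through CD3 and CD28. Th9 cultures (2 libraries) received IL-4, TGF-β1 and IL-2 with antibody to IFNγ, Th2 cultures (2 libraries) IL-4 and IL-2 with antibody to IFNγ, and Th17 cultures (2 libraries) IL-6, TGF-β1, IL-23 and IL-1β with antibodies to IFNγ, IL-4 and IL-2. Cells were collected on day 5 after dead cells had been removed, and no sort for cytokine-producing cells was described. Each subset has a library labelled 1 and one labelled 3, called replicates 1 and 3 here. Whether they came from separate mice or cultures was not stated, so the SDs and p-values measure only the spread between these libraries, which may be technical. In such mixed cultures, fewer cells with an open site and less opening per cell cannot be told apart.

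Il17a and Il17f encode interleukins 17A and 17F, related cytokines that form homodimers and a heterodimer with each other and act on epithelial and stromal cells through the receptor chains IL-17RA and IL-17RC. Th17 cells make both and are known for host defence at mucosal surfaces and for their part in autoimmune inflammation. The genes are neighbours that face each other: Il17a (ENSMUSG00000025929.4) lies on the plus strand at chr1:20730905-20734496 and Il17f (ENSMUSG00000041872.9) on the minus strand at chr1:20777146-20784270, so 42649 bp separate their 3′ ends. The third protein-coding gene of the window is Mcm3, a subunit of the helicase that unwinds DNA at replication, on the minus strand at chr1:20802968-20820312. The window also holds the lincRNAs Gm28653 and Gm28065, the microRNAs Mir206 and Mir133b, the snoRNA Gm24723 and the pseudogene Gm20587.

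The promoter of each cytokine gene is shown first, because both were called as open mainly in Th17 libraries. The sequences are the 250 bases before the annotated start, from RefSeq on GRCm38, the assembly that mm10 displays, and both genes had an entry. Capitals mark matches to 3 short words searched on both strands: TGANTCA, bound by AP-1 and by BATF with its Jun partners, TTCNNNGAA, bound by STAT factors, and TGTGGTT, bound by RUNX factors.
Il17a promoter, chr1:20730655-20730904, plus strand: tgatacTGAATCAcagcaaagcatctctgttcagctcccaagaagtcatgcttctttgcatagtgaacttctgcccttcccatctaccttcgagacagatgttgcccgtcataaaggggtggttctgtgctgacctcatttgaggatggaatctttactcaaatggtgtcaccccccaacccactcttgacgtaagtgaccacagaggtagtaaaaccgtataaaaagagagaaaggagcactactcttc
Il17f promoter, chr1:20784271-20784520, minus strand: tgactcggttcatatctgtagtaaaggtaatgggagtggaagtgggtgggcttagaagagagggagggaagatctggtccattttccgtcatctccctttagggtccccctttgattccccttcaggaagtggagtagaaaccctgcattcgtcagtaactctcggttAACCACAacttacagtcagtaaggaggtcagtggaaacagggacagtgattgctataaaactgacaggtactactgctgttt

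The Il17a stretch held the AP-1 word once, and 6.75% of 32851 promoter stretches of this length held it. The Il17f stretch held the RUNX word once, read on the opposite strand, against 4.40% of all. Neither held the STAT word, which was present in 7.02%. A match describes the letters only and is no evidence of binding.

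Regions of the locus are shown next by the central 300 bases of the joined span, on the plus strand. R3 was called in Th17 libraries only, R16 and R19 were called in every library, and R23, inside Il17f, was weaker or absent in Th17.
R3, chr1:20685819-20686118, plus strand: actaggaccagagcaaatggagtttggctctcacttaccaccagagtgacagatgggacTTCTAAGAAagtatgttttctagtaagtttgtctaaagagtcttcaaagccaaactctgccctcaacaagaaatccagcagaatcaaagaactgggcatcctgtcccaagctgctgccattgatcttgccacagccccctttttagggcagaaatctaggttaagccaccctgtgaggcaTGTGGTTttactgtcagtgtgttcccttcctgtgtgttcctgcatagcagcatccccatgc
R16, chr1:20740532-20740831, plus strand: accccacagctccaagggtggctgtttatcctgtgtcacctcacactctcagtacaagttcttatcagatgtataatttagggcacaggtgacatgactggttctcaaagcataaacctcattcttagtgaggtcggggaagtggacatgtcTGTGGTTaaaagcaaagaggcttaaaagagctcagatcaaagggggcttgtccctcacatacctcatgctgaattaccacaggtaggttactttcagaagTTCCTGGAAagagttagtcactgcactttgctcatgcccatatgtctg
R19, chr1:20754477-20754776, plus strand: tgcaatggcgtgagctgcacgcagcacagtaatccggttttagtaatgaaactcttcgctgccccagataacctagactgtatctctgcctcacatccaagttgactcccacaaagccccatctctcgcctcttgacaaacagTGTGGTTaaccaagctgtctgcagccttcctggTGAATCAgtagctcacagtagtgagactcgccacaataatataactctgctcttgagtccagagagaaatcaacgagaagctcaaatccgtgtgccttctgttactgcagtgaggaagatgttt
R23, chr1:20780866-20781165, plus strand: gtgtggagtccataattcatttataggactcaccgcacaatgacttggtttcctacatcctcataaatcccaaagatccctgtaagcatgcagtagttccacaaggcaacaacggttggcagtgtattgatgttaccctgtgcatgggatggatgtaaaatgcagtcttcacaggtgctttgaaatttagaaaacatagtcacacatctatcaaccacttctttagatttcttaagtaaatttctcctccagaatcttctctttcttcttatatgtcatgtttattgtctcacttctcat

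R3 and R16 each held the STAT and RUNX words once, R19 held the AP-1 and RUNX words once, and R23 held none of the 3 words. Among the central 300 bases of all 236017 regions, 11.7% held the AP-1 word, 8.64% the STAT word and 7.04% the RUNX word. Of the 35 locus regions, 9 held the AP-1 word, 7 the STAT word and 8 the RUNX word. A pair of AP-1 matches and a STAT match fell together in R14, 5.77 kb past the Il17a start, and again in R25, 2.85 kb upstream of the Il17f start. The share of all regions with this combination was not computed.

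The peak lists hold no read counts. Background coverage, the average fragment depth against which peaks were judged, was recovered from the lists. It was lowest in Th9 replicate 1 at 5.65 fragments and ran from 11.2 to 17.7 in the other 5 libraries. The weakest peak called had a fold enrichment over background of 2.11 in Th9 replicate 1 and of 1.71 to 1.83 in the others, so weak sites were least detectable in that library. Because depth differed, strength is given as a percentile, from 0 for no peak to 100 for the strongest. It is the rank of a peak's fold enrichment within its own list. The scale still differed between lists. The middle-ranked peak had a fold of 2.19 and 2.18 in Th17, 2.51 and 2.39 in Th9, and 2.23 and 2.38 in Th2. Near the middle of a list, an equal fold thus ranked highest in Th17. The promoters of the T cell genes Cd3e, Cd3g and Lat had a peak in all 6 libraries and that of Cd4 in 4. The B cell genes Cd79a and Ms4a1, the 3 myeloid markers and the NK gene Ncr1 had none in any library, while of 2 CD8 genes Cd8b1 had a peak in all 6 and Cd8a in 0. Cd8b1 stood higher in Th17, at 74.9 and 76.2 against 51.0 to 68.8 in the others, and its part in the Th17 results was not tested.

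The Il17f promoter was called as open in the Th17 libraries alone. Its peak, in R24, had a fold enrichment of 4.39 and a percentile of 86.7 in Th17 replicate 1, and 4.46 and 87.5 in Th17 replicate 3. No peak was called there in either Th9 or either Th2 library. The peaks were 607 and 498 bp wide and spanned the start, from -368 to +238 bp in replicate 1 and from -362 to +135 bp in replicate 3 (minus is upstream), covering exon 1 and the printed promoter stretch. The promoter percentile was 87.1 ± 0.524 (SD, n = 2) in Th17 and 0 in all 4 other libraries. The groups did not overlap, and the difference of 87.1 points gave a p of 0.133 (two-sided exact permutation test over 15 ways), which is the smallest the design allows. A peak in the promoter of both Th17 libraries and of no other was found for 50 of 21951 protein-coding genes, 0.228%.

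The fold at this promoter was more than the lowest fold called in every other library, including the 2.11 of the shallowest, so a peak of the Th17 strength would have been above the detection limit. The result depends on which transcript is used. The promoter window ran from 1000 bp upstream to 100 bp downstream of starts in the basic GENCODE set. The full set has a longer Il17f transcript that starts at 20790617, and with that start included the promoter also takes in R27, called in all 6 libraries, and the difference was 0.107 points (two-sided exact permutation test, p = 0.80). R27 had percentiles of 87.3 and 82.8 for Th9, 93.8 and 85.5 for Th2, and 87.4 and 78.7 for Th17, so its strength overlapped between the subsets.

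The Il17a promoter was called in 3 libraries. In Th17 the peak in R12 had a fold of 3.60 and a percentile of 81.4 in replicate 1, and 2.75 and 69.5 in replicate 3. In Th2 replicate 3 a peak of 231 bp, with a fold of 2.10 and a percentile of 36.1, lay from 81 to 311 bp past the start, in the end of exon 1 and in intron 1. Th9 replicates 1 and 3 and Th2 replicate 1 had no peak. The Th17 peaks, 1194 and 1640 bp wide, reached from -297 to +896 bp and from -274 to +1365 bp around the start. They therefore covered the start itself and most or all of intron 1, which the Th2 peak did not. The mean percentile was 75.5 ± 8.42 (SD, n = 2) in Th17 and 9.02 ± 18.0 (SD, n = 4) in the others, a difference of 66.5 points (p = 0.133, two-sided exact permutation test, the smallest p possible). Both promoters thus separated Th17 from the rest in these 6 libraries. For Il17a this means both Th17 percentiles above the other 4, an order found for 836 of 21951 protein-coding genes, 3.81%. Mcm3, in the same window, did not separate Th17: its promoter percentiles lay from 96.3 to 98.2 across all libraries.

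**Figure D1:**
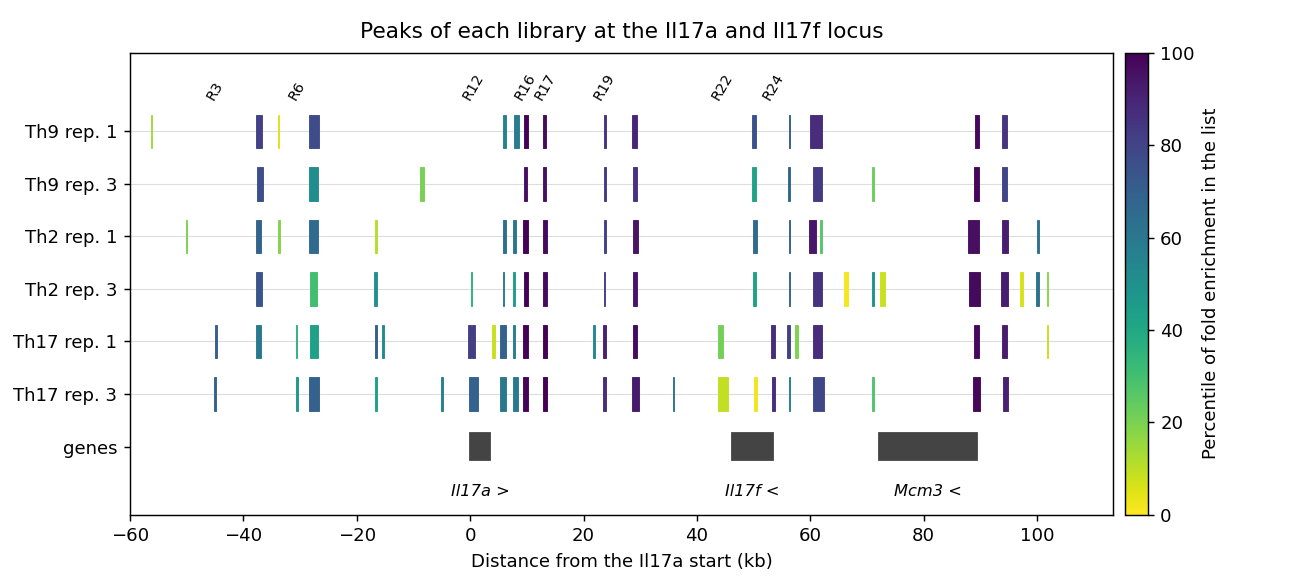
Peaks of each library along the locus, by distance from the Il17a start in kb, with the colour of each bar giving the percentile of its fold enrichment within its list and grey boxes giving the 3 protein-coding genes with the direction of transcription. The promoter regions R12 and R24 are filled in both Th17 rows, R16 and R17 are dark in all 6 rows, and R3, R6 and R22 appear in the Th17 rows alone.

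The number of libraries that called a region varied across the locus. All 6 libraries called 9 regions (R7, R16, R17, R19, R20, R25, R27, R31 and R32), against 21.4% of all regions of the series, and 12 regions were called by a single library, against 37.2%. Both Th17 libraries and no other called 4 regions, R3, R6, R22 and R24, where 1.70% of all regions showed that pattern. Both Th9 libraries alone called 0 regions (1.31% of all regions), and both Th2 libraries alone called 1, R34 (2.87%). No test was made on these counts. The Th17 libraries had background coverages of 14.4 and 17.7 fragments, against 15.2 in the deepest of the others, Th2 replicate 3, and 5.65 to 12.1 in the remaining 3. With all lists set to the length of the shortest by −log10 p, the Th17-only count was again 4. The shortest list, of 100317 peaks, was that of Th17 replicate 3, which lost no peak while every other list did. This cut does not make depth equal, and the part of depth in the count was not tested.

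Of the 3 Th17-only regions outside the Il17f promoter, R3 was the strongest. It lay at -44.9 kb from the Il17a start in intergenic DNA, at chr1:20685767-20686171, with folds of 2.78 and 2.70 and percentiles of 70.2 and 68.6. R6, at -30.6 kb and chr1:20700158-20700456, had percentiles of 35.7 and 46.9, with a fold of 2.01 in replicate 1 and 2.13 in replicate 3. R22 lay past the 3′ end of Il17f, between the genes, at chr1:20774607-20776322, and was weak and wide, with percentiles of 21.4 and 9.23 and widths of 939 and 1663 bp. Its folds of 1.90 and 1.78 were below the 2.11 that Th9 replicate 1 needed for a call, so a peak of this strength could not have been called in that library. The fold of 1.78, from Th17 replicate 3, was also below the lowest called in Th9 replicate 3 (1.83) and Th2 replicate 1 (1.81). R3 was above the limit of Th9 replicate 1 in both Th17 libraries, and R6 in replicate 3 but not in replicate 1.

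Setting a missing peak to 0, both Th17 percentiles were above the other 4 in 7 of the 35 regions, R3, R6, R12, R17, R19, R22 and R24, where 5.70% of all regions had that order. At R19 this order held by percentile but not by fold. Both Th17 percentiles were below the other 4 in 2 regions, R4 and R23, against 5.10%. R4, at -37.2 kb from the Il17a start, had percentiles of 80.7 and 76.5 in Th9, 68.6 and 73.8 in Th2 and 59.8 in Th17 replicate 1, and no peak in Th17 replicate 3. R23 lay in intron 1 of Il17f, 50.1 kb past the Il17a start, at chr1:20780572-20781459. The Th9 libraries had percentiles of 75.4 and 42.0 there and the Th2 libraries 65.6 and 43.1. Th17 replicate 1 had no peak there and Th17 replicate 3 had one at percentile 2.08. Inside Il17f the order of the subsets was therefore opposite at the promoter and in the first intron. The Th9 and Th2 folds at R23 ran from 2.24 to 3.29 and from 2.23 to 2.61, all more than the lowest fold called in either Th17 library.

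**Figure D2:**
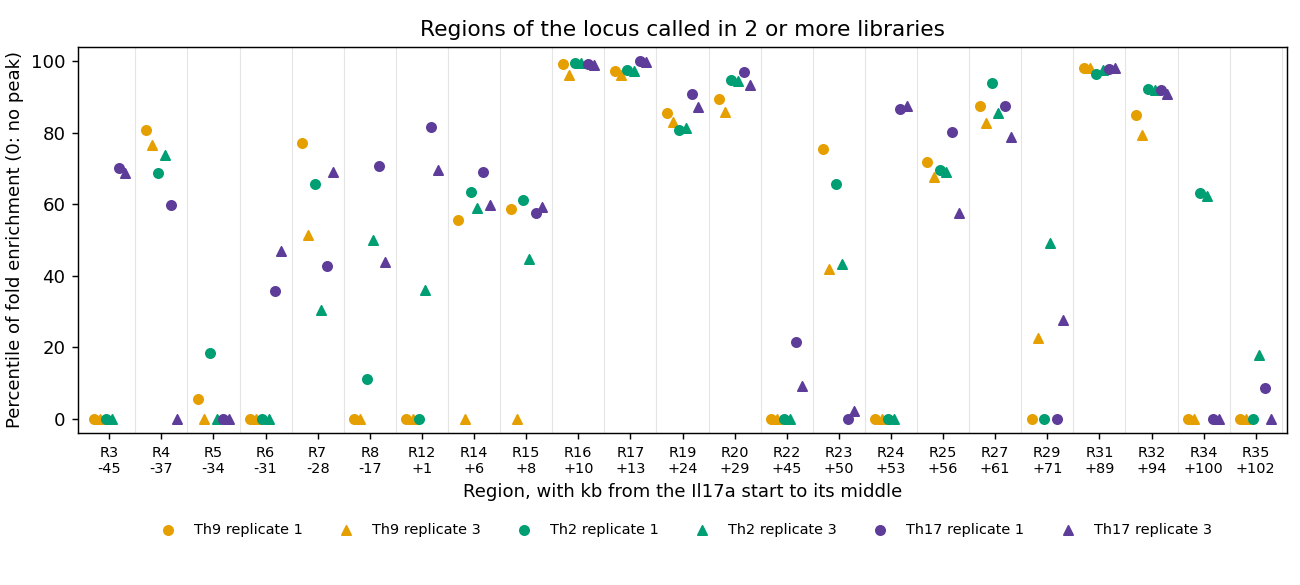
Percentile of fold enrichment in each library, with 0 for no peak, for the 23 regions called by 2 or more libraries, ordered along the chromosome with the distance of each from the Il17a start in kb. The Th17 points (purple) stand above all others at R3, R6, R12, R17, R19, R22 and R24 and below all others at R4 and R23.

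The strongest peaks of the locus were not subset-specific. Between the genes, R16 (9.78 kb past the Il17a start, chr1:20740292-20741071) and R17 (13.2 kb, chr1:20743716-20744474) were the 2 regions with the highest mean fold. R16 had percentiles of 99.3 and 96.1 for Th9, 99.6 and 99.4 for Th2, and 99.3 and 98.9 for Th17. Its folds, from 11.0 to 15.3, overlapped between the subsets, and so an intergenic site near Il17a was among the most accessible places in all 3 kinds of culture. In Th17 the R16 peaks, 778 and 765 bp wide, were wider than the 674 to 744 bp of the other libraries.

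R17 was the strongest region of the locus in Th17. Its percentiles were 97.1 and 96.1 for Th9, 97.4 and 97.2 for Th2, and 99.9 and 99.6 for Th17. The folds were 9.71 and 11.0 for Th9, 8.35 and 10.2 for Th2, and 20.3 and 13.9 for Th17, so both Th17 values stood above all others. Measured within each library, the fold of R17 divided by that of R16 was 0.691 and 0.992 for Th9 and 0.647 and 0.663 for Th2, but 1.48 and 1.26 for Th17. R17 was therefore the stronger of the pair only in the 2 Th17 libraries. The ratio averaged 1.37 ± 0.161 (SD, n = 2) in Th17 and 0.748 ± 0.164 (SD, n = 4) in the others. Against the Mcm3 promoter of the same library, the R17 fold was 1.98 and 1.41 in Th17 and 0.772 to 1.11 in the others. These ratios were chosen after the values had been seen and were not tested.

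The DNA under R17 is a tandem repeat. From chr1:20743899-20744310, 412 bp or 54.3% of the region, a 17-base unit recurs about 24 times, most often as agagcacagggcggtgc, which made up 13 of the 24 units. The left edge is printed with 100 flanking bases in lower case and the first 2 units of the repeat in capitals.
R17, left edge of the repeat, chr1:20743799-20743932, plus strand: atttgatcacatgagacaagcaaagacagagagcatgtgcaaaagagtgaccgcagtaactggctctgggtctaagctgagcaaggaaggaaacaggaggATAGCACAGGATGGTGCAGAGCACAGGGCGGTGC

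Reads were 50 bases long, and those of low mapping quality had been set aside by the authors. Of the 35 locus regions, R17 alone had such a repeat at its centre, defined as at least 80% of letters equal to the letter a fixed 2 to 100 bases further on. Of the 50493 regions called in all 6 libraries, 2186 (4.33%) had one, and in 66 of those 2186 (3.02%) both Th17 percentiles were above the other 4, against 7.71% of all regions called in all 6. The part of the repeat in the R17 values was not tested.

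**Figure D3:**
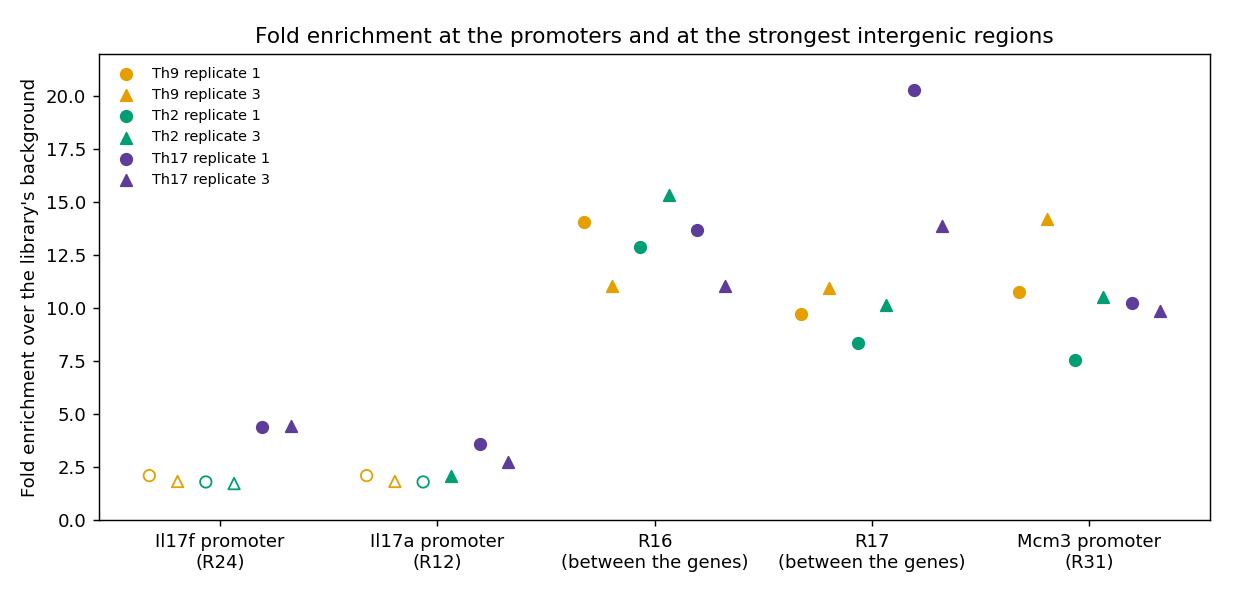
Fold enrichment over background in each library at the Il17f, Il17a and Mcm3 promoters and at R16 and R17, on a linear axis. Filled symbols are called peaks, and open symbols, placed at the lowest fold that library called, mark libraries without a peak; both Th17 values lie above the others at the cytokine promoters and at R17, but not at R16 or the Mcm3 promoter.

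R19 and R20, also between the genes, were called everywhere too. R19, 23.7 kb past the Il17a start at chr1:20754364-20754890, had percentiles of 85.5 and 83.1 for Th9, 80.7 and 81.3 for Th2, and 90.8 and 87.1 for Th17, and its peaks were 476 and 527 bp wide in Th17 against 275 to 375 bp elsewhere. The folds of R19 were 4.42 and 4.38 for Th9, 3.56 and 4.30 for Th2, and 5.46 and 4.39 for Th17. By fold, Th17 replicate 3 was thus below Th9 replicate 1. R20, 29.2 kb past the start at chr1:20759454-20760688, had percentiles of 89.4 and 85.7 for Th9, 94.8 and 94.5 for Th2, and 97.0 and 93.2 for Th17, so Th17 overlapped Th2 while both Th9 libraries were lowest. R20 held the AP-1 word once at its centre. The remaining regions called everywhere, R7, R25, R27, R31 (the Mcm3 promoter) and R32, showed no separation of Th17 from the rest by percentile. R25, upstream of Il17f at chr1:20786833-20787398, had percentiles from 67.6 to 71.8 in the Th9 and Th2 libraries, with Th17 replicate 1 above them at 80.1 and Th17 replicate 3 below them at 57.6. R32, past the Mcm3 promoter, was at 84.9 and 79.4 in Th9 and at 90.7 to 92.1 in the other 4 libraries. Th9 thus stood lowest there as at R20, and the share of all regions with that order was not computed. R7, at -27.6 kb from the Il17a start and wholly soft-masked in the RefSeq assembly, varied most, from 30.4 to 77.0.

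Among the 9 regions called in all 6 libraries, both Th17 percentiles were above the other 4 in 2 (R17 and R19) and below them in 0, where the shares over all 50493 such regions were 7.71% and 10.8%. Both Th17 peaks were wider than the other 4 in 2 (R16 and R19), against 7.80%. With the fold of each region divided by that of R16 in the same library, Th17 was above the others in 3 of the other 8 regions, R17, R19 and R20, against 6.39% of all, and below them in 0, against 11.8%. For R19 the margin was thin, with a lowest Th17 ratio of 0.398 and a highest other ratio of 0.396.

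Near Il17a, 2 further sites were called in 5 libraries and missed in Th9 replicate 3 only. R14, 5.77 kb past the start, had percentiles of 55.5 in Th9 replicate 1, 63.3 and 58.9 in Th2, and 69.1 and 59.7 in Th17, which overlapped. Its peaks were 1040 and 1013 bp wide in Th17 against 299 to 556 bp elsewhere, and they began nearer to Il17a. R15, 8.08 kb past the start, overlapped in both strength and width. R8, at -16.7 kb, had percentiles of 11.2 and 50.1 in Th2 and 70.8 and 43.7 in Th17 and no peak in Th9. R34, the region called in Th2 alone, lay 46.7 kb beyond the Il17f start, past Mcm3, with percentiles of 63.1 and 62.2. R5, R29 and R35, called by 2 or 3 libraries each, held no percentile above 49.2. The 12 regions called by 1 library were divided as 6 in Th17, 4 in Th2 and 2 in Th9. How such regions divide by subset over the whole series was not computed, so no excess of any subset can be read from this split.

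Peaks covered 11568 and 10446 bp of the window in Th9, 12831 and 14673 bp in Th2, and 15888 and 17719 bp in Th17. The means were 11007 ± 793 bp, 13752 ± 1302 bp and 16804 ± 1295 bp (SD, n = 2 each). Both Th17 values exceeded all others, and the Th17 mean was 1.36 times that of the other 4. The mean percentile of the peaks did not follow, being 64.4 and 65.0 in Th17, 72.0 and 69.4 in Th9, and 66.0 and 57.0 in Th2. More of the Th17 locus was thus called, but the peaks called were not stronger on average. These means run over unlike sets of peaks, 23 and 21 in Th17, 15 and 13 in Th9, and 18 and 21 in Th2. Between the genes 5746 and 7219 bp were covered in Th17 and 2175 to 3860 bp in the others, and within Il17a 897 and 1366 bp against 231 bp in Th2 replicate 3 and 0 in the other 3. In the 60 kb beyond Il17f, Th2 replicate 3 had the most, 8205 bp, and the Th17 libraries, at 5084 and 5056 bp, were close to Th2 replicate 1 at 5015 bp. Upstream of Il17a, within Il17f and beyond Il17f the Th17 values overlapped the others.

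**Figure D4:**
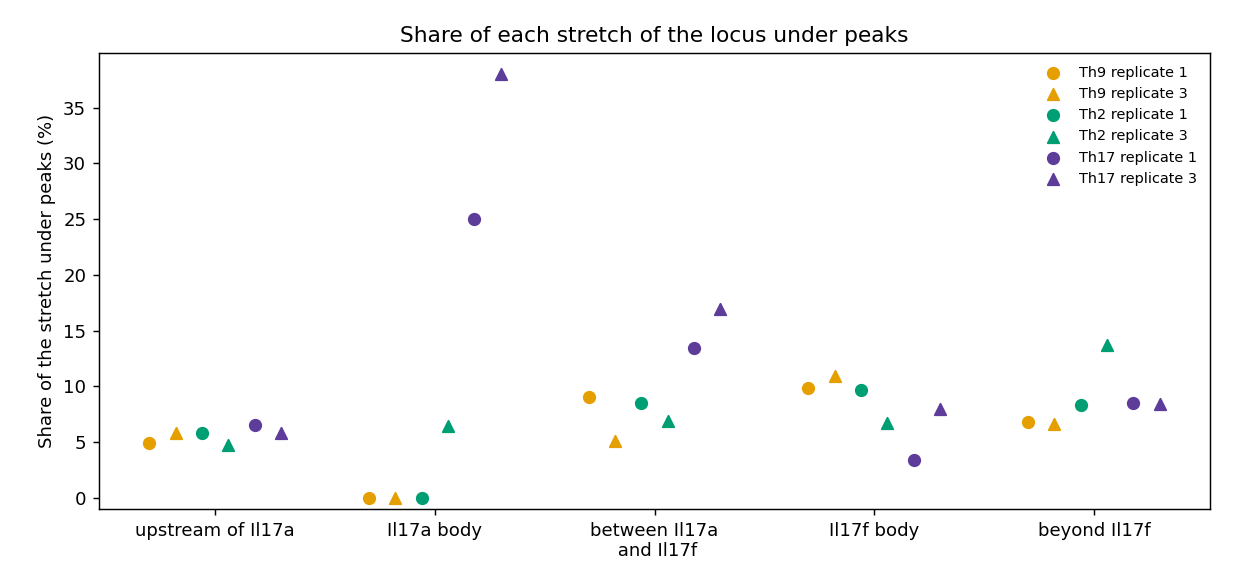
Share of each of 5 stretches of the locus under peaks, in percent, for each library. Both Th17 libraries are highest in the Il17a gene (25.0% and 38.0%) and between the genes (13.5% and 16.9%), and not in the Il17f gene, where they have 3.35% and 7.96%.

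The same 60 kb rule was applied to the reciprocal cytokine genes. Around Il9, the cytokine of Th9 cells, 13 regions were found, of which 6 were called in all libraries, 0 in Th17 alone, and 3 in all 4 Th9 and Th2 libraries but neither Th17 library. The stretch from Il4 to Il5, which holds the genes for the main Th2 cytokines, had 31 regions, of which 9 were called in all 6, 0 in Th17 alone and 8 in all Th9 and Th2 libraries but no Th17 library. At the Il17a and Il17f locus the latter pattern was found in 0 of 35 regions. Its share over all regions of the series was 2.005%, so a count of 0 here is near the background. The share called in both Th17 libraries alone was 1.70%, so the counts of 0 in the Il9 and Il4 to Il5 windows are near the background too. The Il9 and Il4 promoters were called in the 4 libraries of Th9 and Th2 and missed in both of Th17, which held for 0.847% of protein-coding genes. Il9 was weaker in Th2, at percentiles of 37.1 and 44.4, than in Th9, at 88.6 and 90.7. Il4 lay from 87.8 to 92.3 across these 4 libraries. From a browser view, the paper described the Il9 promoter peak as absent in both Th2 and Th17, which differs from the Th2 calls here. The measures are unlike, since here any called peak that overlapped the promoter window counted. The other 2 cytokine genes of this list did not have the pattern of a call in all Th9 and Th2 libraries and none in Th17. Il13 had a promoter peak in the Th2 libraries only, at 51.5 and 86.8, and Il5 had one in all 6, at 65.0 and 58.7 in Th17 and 48.1 to 74.4 in the others.

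Other genes of the IL-17 system were examined by promoter calls. A promoter peak in all 6 libraries was found for 58.7% of protein-coding genes. Among 4 other ligands of the family, Il17d had one in all 6, Il25 in none, and Il17b and Il17c had one in Th9 replicate 3 only. Of 6 genes for receptors and the adaptor, Il17ra, Il17rb, Il17rd and Traf3ip2 had a peak in all 6 and Il17rc in none. Il17re had percentiles of 65.6 and 58.5 for Th9, 0 and 18.1 for Th2, and 70.8 and 66.1 for Th17. The Th17 values of Il17re were above the other 4 by a narrow margin. Those of Il17ra, at 86.0 and 85.6, were below the 88.0 to 91.1 of the others. Over all protein-coding genes, both Th17 values were above the other 4 in 3.81% and below them in 6.66%.

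Of 19 genes linked to Th17 differentiation, 14 had their promoter called in every library. One was Stat3, the transcription factor downstream of IL-6, with percentiles from 97.8 to 99.7. Il23r, a receptor chain for IL-23, which was added to the Th17 cultures, was the only one called in both Th17 libraries and no other, at percentiles of 12.4 and 62.1. Both Th17 percentiles were above the other 4 for 3 genes (Il23r, Ahr and Maf), against 3.81% of all genes, and below them for 2 (Irf4 and Nfkbiz), against 6.66%. For the transcription factor gene Maf, known to act in Th17 cells, the values were 93.8 and 93.3 in Th17 and 86.7 to 91.4 in the others. For Irf4, a partner of BATF, they were 83.9 and 76.9 in Th17, 92.1 and 91.6 in Th9 and 87.1 and 84.8 in Th2. Il22, another cytokine of Th17 cells, had no promoter peak in any library, and Ccl20 had one in Th17 replicate 3 only, at percentile 10.2. Ccr6 was highest in Th9, with percentiles of 81.3 and 77.3 there, 7.53 and 0 in Th2, and 0 and 48.9 in Th17. Il1r1 was missed in Th9 replicate 3 only, and its Th17 values of 59.7 and 62.8 overlapped the 46.7 and 59.9 of Th2.

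The genes whose promoter pattern was nearest to that of Il17f were found by the Euclidean distance over the 6 percentiles. Among the 50 genes called in both Th17 libraries and no other, Klrd1, a killer lectin receptor gene, was closest at a distance of 2.62, with percentiles of 89.2 and 88.4. Aqp9, an aquaporin gene, followed at 13.2, and then Prr29, Urad and Tspan1 at 14.5 to 22.6. For Il17a, 17 genes were called in the same 3 libraries, and the nearest was Cxcr1, a chemokine receptor gene, at 18.0, with percentiles of 44.6 in Th2 replicate 3 and 65.6 and 70.7 in Th17. Timp1, Olfr1051 and Pou1f1 followed at 27.8 to 43.3.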

How the data were processed

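Per the labels and methods, read pairs were trimmed with Trim Galore 0.4.3, aligned to mm10 with Bowtie2, cleared of duplicates with Picard, and filtered for mapping quality and mitochondrial reads. The authors called broad peaks in each library on its own with MACS2 2.1.0, in paired-fragment mode with no control and no local background. A Tn5 shift and the calling cutoff were not given in the sources used here. The deposited lists hold each peak's position, the fold enrichment as a linear ratio to background, a display score left unused here, and the −log10 p and −log10 q. The deposited −log10 q served as a filter and the −log10 p to set lists to equal length.

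Positions were made 1-based. Peaks of all libraries that overlapped or touched were joined, and a call needed 1 bp. Genes were from the GENCODE M21 basic set. The members, gene lists, sequence words and rules for named genes (those with the 5 smallest distances, leaving out Gm and Rik names) were chosen with earlier results of these data known. A marker gene and a gene of the distance rule are not reported here. Background coverage was solved from the most frequent flat peak, whose fold is its coverage plus 1 over the background plus 1. It assumes that MACS2 ran as described. Only the promoter percentiles of Il17f and Il17a were tested, by a two-sided exact permutation test over libraries (scipy 1.17.1, Python 3.11.15, pandas 2.3.3). The region counts, list counts and ratios have no test. The scripts were tested on simulated lists. Alternatives were stricter peaks, equal lists, other windows, other overlaps, a replicate block and each library left out.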

Additional observations from a re-analysis of the deposited data

How the results depend on the processing

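The promoter differences for Il17f and Il17a kept their direction in each alternative that gave a difference, and p could not reach 0.05 in any. With each library left out in turn they ran from 86.7 to 87.5 points and from 60.5 to 75.5. Peaks with a fold of at least 4 left no library with an Il17a promoter peak, a difference of 0, and gave 15.8 points for Il17f. The labels give shared replicate numbers but no shared animal or day, and the difference of replicate 1 from 3 correlated between subsets at 0.168, 0.0313 and -0.00984 over 50493 regions, so the numbers were not taken as pairs. With the replicate block the differences were 87.1 and 66.5 (p = 0.222 for both, two-sided exact permutation test over 9 ways, the smallest it allows). The full set of transcript starts, added after the data had been seen, gave 0.107 for Il17f and 66.5 for Il17a.

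At a fold of at least 4, the counts were 1 region called in Th17 alone, 4 called in all 6, and 2 with Th17 above the rest. At a fold of at least 2.2, 4 had Th17 above the rest. With flanks of 30 kb, 2 were called in Th17 alone. With a library left out these counts ran from 4 to 8 (8 without Th17 replicate 3), 9 to 11, and 7 to 15 (15 without Th17 replicate 3), and with a Th17 library left out only the other had to meet the rule. The covered-length ratio was 1.48 at a −log10 q of at least 5, 1.04 at a fold of at least 4, 1.25 at 2.2, 1.63 with flanks of 30 kb and 1.47 relative to the length each list covers, and ran from 1.28 to 1.45 with a library left out. Without R17, another later choice, 6 regions had Th17 above the rest. Depth limits weak sites most in Th9 replicate 1.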
